A study of Nicotiana tabacum with 12 samples.

Results

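The transgenic tobacco line P2.4a was compared with untransformed plants of the same cultivar, TN90, in 6 of the 12 leaf RNA libraries of the series, chosen by their labels alone. The CK group holds 3 libraries of untransformed plants that the labels call wild type with no genetic modification. The P2.4a group holds 3 libraries of plants transformed with NtYb1, also called EGY2 or NtEGY2, behind the 35S promoter, and labelled as overexpressing it. How many plants went into a library is not given in the labels used here. TN90 is a burley tobacco, a light air-cured type of Nicotiana tabacum. All plants grew in the field, and top leaves were frozen before they matured. The remaining 6 libraries come from P3.9a and P9.10a, which carry the same construct and are used below only to show where P2.4a differs. Per the labels, the lines are green-stemmed segregants of primary transformants, so P2.4a is 1 line and does not stand for the transgene at large, and the 35S promoter is active in most plant tissues rather than in leaf cells alone. In the labels' treatment text the P3 plant is numbered otherwise than in the titles, and a passage there is about roots; groups follow the titles.

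Burley tobaccos carry recessive alleles at the Yb1 and Yb2 loci, which give pale stems and low chlorophyll. EGY proteins are membrane-bound protease-like proteins of the chloroplast, and in Arabidopsis a member of the family is needed for normal chloroplast development. Whether this holds for NtEGY2 was not tested here. The stated purpose of the series was to learn which routes of carbon and nitrogen metabolism are altered by variation at these loci. The comparison of P2.4a with CK asks which leaf genes stood at another level in this line.

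The libraries held 16657112 to 18444571 counts in CK and 15321921 to 16063400 in P2.4a. Along the first principal component, with 36.5% of the variance, CK lay from -58.3 to -16.2 and P2.4a from 26.1 to 36.1. CK replicate 3 was the library at -58.3, while the other CK libraries lay at -17.8 and -16.2. On the second component, with 22.2%, P2.4a replicate 3 lay at 46.0 and the other P2.4a libraries at -23.8 and -31.8. Calls lost or gained without 1 of these libraries are given beside the results. NtEGY2 could not be matched by symbol, so the transgene itself was not analysed here and gives no check of the labels. Whether fewer cells of a type or less RNA per cell lies behind a lower level cannot be told apart in whole leaves.

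Of 38242 genes tested, 238 (0.622%) passed an edgeR adjusted p of 0.05 in P2.4a against CK, 81 higher (0.212%) and 157 lower (0.411%). The higher genes had a median 2.17-fold change and the lower genes a median 1.79-fold change. A change of at least 2-fold was seen in 48 of the higher genes and 46 of the lower. In all 238 the CPM values (counts scaled by library size) of the groups did not overlap, against 7456 of all tested genes (19.5%), of which 3679 (9.62%) had every P2.4a library above CK and 3777 (9.88%) every one below. The genes that rose stood at a median level of 3.07 log2 CPM and those that fell at 4.13, beside 3.25 over all tested genes. Protein-coding genes made up 221 of the 238, and 4 were long non-coding RNAs, beside 33647 and 400 of the 38242 tested genes.

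This count rests on the libraries and on the fit. In the fit over all 12 libraries, where the other lines add to the estimate of the spread, 3 of the 238 genes passed the threshold (0.00765% of 39207 tested), 2 of them lower (0.0051%). Without CK replicate 3, 21 genes passed, and without P2.4a replicate 3, 1358. Calls numbered 47 without CK replicate 1, 229 without CK replicate 2 (124 of them among the 238), 73 without P2.4a replicate 1 and 78 without P2.4a replicate 2. The fitted direction of the 238 genes was the same in each of these fits. It could hardly be otherwise, because the CPM values of the groups did not overlap in any of the 238. Called in all 6 fits that left out 1 library were 13 genes, 10 lower and 3 higher.

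**Figure D1:**
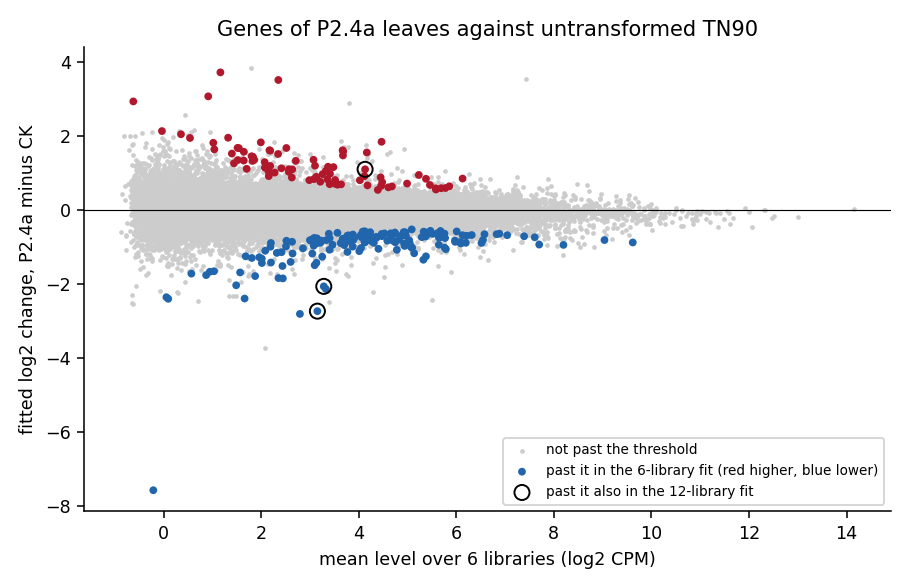
Fitted log2 change, P2.4a minus CK (y axis), against the mean level over the 6 libraries in log2 CPM (x axis), for the 38242 tested genes. Red and blue points are the 81 higher and 157 lower genes past the edgeR threshold, and rings mark the 3 that also passed it in the 12-library fit.

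LOC107772409 had the lowest adjusted p of all genes and has no symbol. Its CK libraries held 15.5, 14.8 and 15.2 CPM and its P2.4a libraries 2.87, 2.52 and 1.43. Every P2.4a library was far below the closely spaced CK libraries, and the fitted log2 change was -2.73 (SE 0.20, edgeR adjusted p = 2.94e-05 in the 6 libraries and 0.0062 in 12). LOC107781523 went from 17.1, 17.5 and 11.7 CPM in CK to 4.09, 4.17 and 2.80 in P2.4a, a log2 change of -2.06 (SE 0.20, edgeR adjusted p = 0.000863, and 0.0273 in 12 libraries). The highest P2.4a library of LOC107781523 stood below its lowest CK library, CK replicate 3. LOC107794724 was the rise that passed in both fits: from 12.7, 9.62 and 10.9 CPM to 24.8, 19.1 and 27.3, a log2 change of 1.10 (SE 0.15, edgeR adjusted p = 0.00851, and 0.0273 in 12 libraries). Without CK replicate 3 its adjusted p was 0.0695, while the falls of LOC107772409 and LOC107781523 passed with any 1 library left out.

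Among the 10 largest falls at a mean level of at least 1 log2 CPM, fitted log2 changes ran from -2.81 to -1.69. LOC107780718 fell from 11, 17.5 and 19.7 CPM to 4.72, 3.13 and 3.11 (log2 change -2.14, SE 0.24, edgeR adjusted p = 0.00851). LOC107816005 fell from 9.32, 9.24 and 6.22 CPM to 2.62, 2.09 and 2.18 (log2 change -1.85, SE 0.21, edgeR adjusted p = 0.00361). Both had tight P2.4a libraries well below CK, and both kept the call with any 1 library left out. LOC107790386 had the largest fall of the 10, from 9.50, 8.75 and 17.5 CPM to 1.28, 1.10 and 2.68 (log2 change -2.81, SE 0.40, edgeR adjusted p = 0.0412). It was called in 3 of the 6 fits that left out a library. The others were LOC107803548, LOC107798726, LOC107776344, LOC107777503 and LOC107785272, each between 3.22-fold and 5.25-fold lower. Without CK replicate 1, 6 of the 10 lost the call (adjusted p 0.0577 to 0.0968), without CK replicate 3 it was 5 (0.0914 to 0.166), without P2.4a replicate 1 also 5 (0.0722 to 0.136), and without P2.4a replicate 2 it was 4 (0.0734 to 0.112). Without CK replicate 2, LOC107785272 alone lost it (0.0572).

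LOC107781714 was named after its values were seen, because it had no count in any P2.4a library. CK held 25, 34 and 15 counts, so that the line was at least 7.65-fold lower against a floor of 3 counts per library (edgeR adjusted p = 0.00851, and 0.271 in 12 libraries). The P3.9a libraries held 1 to 24 counts of it and the P9.10a libraries 4 to 12. A count of 0 at this depth limits the level and does not show that the transcript was absent.

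The 10 largest rises at a mean level of at least 1 log2 CPM ran from 1.64 to 3.73 on the log2 scale. LOC107772029 was almost silent in CK, with 0, 0.328 and 0.565 CPM, and held 4.34, 3.56 and 4.11 CPM in P2.4a (log2 change 3.73, SE 0.49, edgeR adjusted p = 0.00905). LOC107792972 rose from 0.481, 1.42 and 0.440 CPM to 8.49, 11.5 and 7.72 (log2 change 3.52, SE 0.34, edgeR adjusted p = 0.00361). These 2 rises passed with any 1 library left out, and in neither did a CK library come near a P2.4a library. LOC107762939 rose from 1.62, 2.30 and 1.13 CPM to 7.34, 5.52 and 5.35 (log2 change 1.83, SE 0.26, edgeR adjusted p = 0.00905). LOC107784237 stood highest of the 10 in level, at 10.9, 10.5 and 7.28 CPM in CK and 28.7, 26 and 48.8 in P2.4a (log2 change 1.85, SE 0.28, edgeR adjusted p = 0.0465). The remaining members were LOC107791646, LOC107810317, LOC107775468, LOC107785850, LOC107783724 and LOC107766417, each between 3.12-fold and 3.88-fold higher. Without CK replicate 3, 8 of the 10 lost the call (adjusted p 0.0584 to 0.2), without CK replicate 1 it was 7 (0.064 to 0.12), without CK replicate 2 it was 4 (0.0528 to 0.0905), without P2.4a replicate 1 also 4 (0.0608 to 0.0864), and without P2.4a replicate 2 it was 2 (0.0771 to 0.097).

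The 3 most abundant genes past the threshold fell, and were named after their values were seen. LOC107787913 went from 929, 999 and 1119.6 CPM in CK to 545, 563 and 553 in P2.4a (log2 change -0.88, SE 0.14, edgeR adjusted p = 0.0138, and 0.0978 without CK replicate 3). LOC107804482 went from 636, 582 and 788 CPM to 404, 351 and 389 (log2 change -0.81, SE 0.15, edgeR adjusted p = 0.0328), but it did not pass without CK replicate 1 (0.0841), CK replicate 3 (0.178), P2.4a replicate 1 (0.0514) or P2.4a replicate 2 (0.104). LOC107790903 went from 354, 370 and 432 CPM to 236, 185 and 180.3 (log2 change -0.94, SE 0.15, edgeR adjusted p = 0.0148, 0.101 without CK replicate 3 and 0.0555 without P2.4a replicate 2). In each of them the groups did not overlap, as for every called gene. These genes have no symbol in the reference table, so nothing is said of what they do.

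Genes with a symbol made up 896 of the tested genes, and 13 of them passed (1.45%), 7 higher (0.781%) and 6 lower (0.67%). Over all tested genes the shares were 0.622%, 0.212% higher and 0.411% lower. They include enzymes and carriers of sugar metabolism, a chaperone of the endoplasmic reticulum, genes of DNA replication and the cell cycle, and enzymes of hormone synthesis. None of the 13 passed in the 12-library fit, where their adjusted p ran from 0.19 to 0.486. Without CK replicate 3 all 13 lost the call, at adjusted p 0.0914 to 0.276. Calls were lost by 12 of them without CK replicate 1 (0.064 to 0.156), by 10 without CK replicate 2 (0.0599 to 0.0898), by 10 without P2.4a replicate 1 (0.0572 to 0.141) and by 8 without P2.4a replicate 2 (0.0771 to 0.155). Without P2.4a replicate 3 none of the 13 lost it.

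In sugar metabolism, Hxk1 rose and SUT1 fell. Hxk1 encodes a hexokinase, the enzyme that phosphorylates glucose and also takes part in glucose sensing in plants. It held 3.61, 4.32 and 3.71 CPM in CK and 7.47, 7.98 and 9.59 in P2.4a, a 2.15-fold rise (log2 change 1.10, SE 0.17, edgeR adjusted p = 0.0151). The lowest P2.4a library was well above the highest CK library. SUT1, the sucrose carrier that loads sucrose into the phloem, fell from 135, 139 and 157 CPM to 103, 86.7 and 86.5 (log2 change -0.64, SE 0.13, edgeR adjusted p = 0.0436). IDH, an isocitrate dehydrogenase, which supplies the carbon skeleton on which ammonium is assimilated, fell from 62.3, 57.1 and 62.9 CPM to 40.1, 38.5 and 44.6 (log2 change -0.57, SE 0.11, edgeR adjusted p = 0.0436). For both falls the CK and P2.4a values did not overlap, as for every called gene.

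Among hormone and flowering genes, Ntc12, a synonym of which names it a gibberellin oxidase (NtGA20ox), rose from 26.7, 28.3 and 34.0 CPM to 61.4, 57.2 and 41.2 (log2 change 0.85, SE 0.15, edgeR adjusted p = 0.0328). P2.4a replicate 3 was the lowest of its group and still above CK. NCED3 (LOC107827644), of the enzyme family that cleaves carotenoids in the committed step of abscisic acid synthesis, fell from 19.5, 23.3 and 25.1 CPM to 13.3, 14.2 and 15.8 (log2 change -0.65, SE 0.13, edgeR adjusted p = 0.0421). CO, named for the flowering-time regulator CONSTANS of Arabidopsis, fell from 29.8, 28.7 and 32.7 CPM to 20.7, 16.8 and 21.5 (log2 change -0.63, SE 0.12, edgeR adjusted p = 0.0412). Its groups were also apart, as for every called gene.

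HD had the lowest adjusted p of the 13. It fell from 69.9, 75.1 and 77.7 CPM to 42.3, 26.4 and 38.5 (log2 change -1.06, SE 0.15, edgeR adjusted p = 0.0108), and of the 6 fits that left out a library it lost the call in that without CK replicate 3 (adjusted p 0.0914). DCN1 fell from 40.8, 34.0 and 34.0 CPM to 21.6, 25.7 and 24.7 (log2 change -0.60, SE 0.12, edgeR adjusted p = 0.0441). MIP rose from 39.6, 42.2 and 32.4 CPM to 54.7, 57.5 and 59.5 (log2 change 0.59, SE 0.12, edgeR adjusted p = 0.0465). In HD, DCN1 and MIP every P2.4a library lay on 1 side of CK, as for every called gene.

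**Figure D2:**
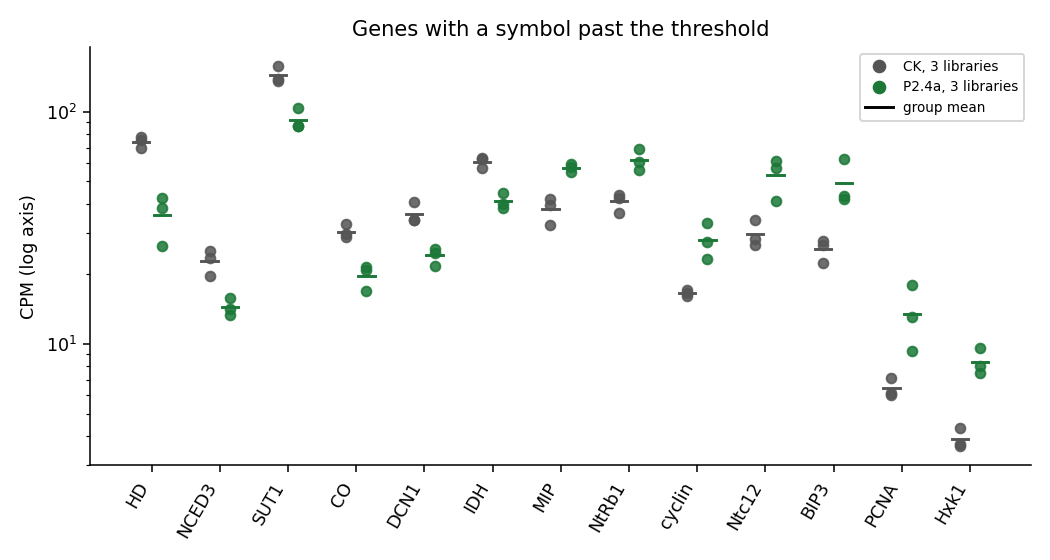
Level in CPM on a log axis (y axis) of the 13 genes with a symbol past the threshold (x axis), 1 point per library, 3 CK libraries in grey and 3 P2.4a libraries in green, with bars at group means. In every gene the green points lie wholly above or wholly below the grey ones, as in all 238 called genes and in 19.5% of all tested genes. NCED3 is LOC107827644 and PCNA is LOC107779602.

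Chaperones of the endoplasmic reticulum were measured by 6 BiP genes. BiP is the Hsp70 protein of that compartment; it folds newly made secreted and membrane proteins and is a standard marker of the unfolded protein response. BIP3 rose, from 27.6, 26.6 and 22.3 CPM in CK to 42.2, 62.6 and 43.1 in P2.4a (log2 change 0.95, SE 0.16, edgeR adjusted p = 0.0245; 0.144 without CK replicate 3). It was the only 1 of the 6 to pass, beside 0.212% of all tested genes called higher. Without P2.4a replicate 3, BIP4 (adjusted p 0.0207) and BIP2 (0.0431) passed as well. BIP4 held 3.55, 3.34 and 2.45 CPM in CK and 5.17, 9.39 and 5.91 in P2.4a (log2 change 1.13, SE 0.24, edgeR adjusted p = 0.0526). BIP1 went from 42.8, 36.0 and 27.7 CPM to 60.6, 104 and 56.0 (log2 change 1.05, SE 0.27, edgeR adjusted p = 0.145), and BIP8 and BIP2 had fitted changes of 0.93 and 0.90. In these 5 genes every P2.4a library was above every CK library, as in 9.62% of all tested genes, and in BIP5 (fitted change 0.40) the groups overlapped.

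The median fitted change of the 6 BiP genes was 0.94, beside 0.00184 over all tested genes, and it stayed between 0.68 and 1.09 with any 1 library left out. Their summed level was 142 to 199 CPM in CK and 244 to 398 in P2.4a, with P2.4a replicate 2 the highest. The list medians for the other lines, which share the CK libraries, were 0.50 in P3.9a and 0.63 in P9.10a. BiP genes are close copies among which reads could be split or lost, so the 6 values are not independent. The BiP list was not among the lists first planned, and it holds BIP3, itself a call of these data. Its median is therefore a description and not separate support.

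Genes of DNA replication and the cell cycle formed a list of 16, of which 2 rose and none fell, beside 0.212% and 0.411% of all tested genes. PCNA (LOC107779602), the sliding clamp of DNA polymerases, rose from 6.13, 7.11 and 6.03 CPM to 13, 9.26 and 17.9 (log2 change 1.06, SE 0.21, edgeR adjusted p = 0.0487). A gene listed as cyclin (LOC107793085) rose from 17.1, 16.5 and 16 CPM to 27.3, 23.1 and 33.2 (log2 change 0.75, SE 0.14, edgeR adjusted p = 0.0321). In both, P2.4a replicate 3 was the highest library. CycD3.1, a D-type cyclin of the entry into division, held 25.1, 23.7 and 20.7 CPM in CK and 32.7, 31.8 and 36.0 in P2.4a (log2 change 0.53, SE 0.12, edgeR adjusted p = 0.0557, and 0.0434 without P2.4a replicate 3). NtRb1, the retinoblastoma-related protein that restrains entry into DNA synthesis and was not on the list, rose from 42.6, 43.9 and 36.6 CPM to 60.8, 56.0 and 68.7 (log2 change 0.59, SE 0.12, edgeR adjusted p = 0.0464). All 4 genes had P2.4a libraries wholly above CK, as in 9.62% of all tested genes, and every called gene had groups that did not overlap. On the list, 5 of the 16 members stood wholly above CK and 1 wholly below.

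By sign 14 of the 16 cell cycle genes had a value above 0, with a median of 0.41, beside 50.3% of all tested genes above 0. Among the mitotic kinases and cyclins, CdkB1-2, CdkB1-1 and CycB1 had fitted changes of 1.15, 0.99 and 0.71 with overlapping groups and adjusted p of 0.242, 0.371 and 0.527 in edgeR. CdkB1-2 shows the spread: CK held 1.68, 2.52 and 1.00 CPM and P2.4a 3.00, 2.39 and 6.29. The sign was negative for NtcycD3-1 (-0.39) and H3 (-0.19). By the median over the list, P2.4a replicate 3 stood 0.62 above the CK mean on the log2 scale, and replicates 1 and 2 stood 0.21 and 0.29 above. The median fitted change was 0.23 without P2.4a replicate 3 and 0.12 without both it and CK replicate 3.

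**Figure D3:**
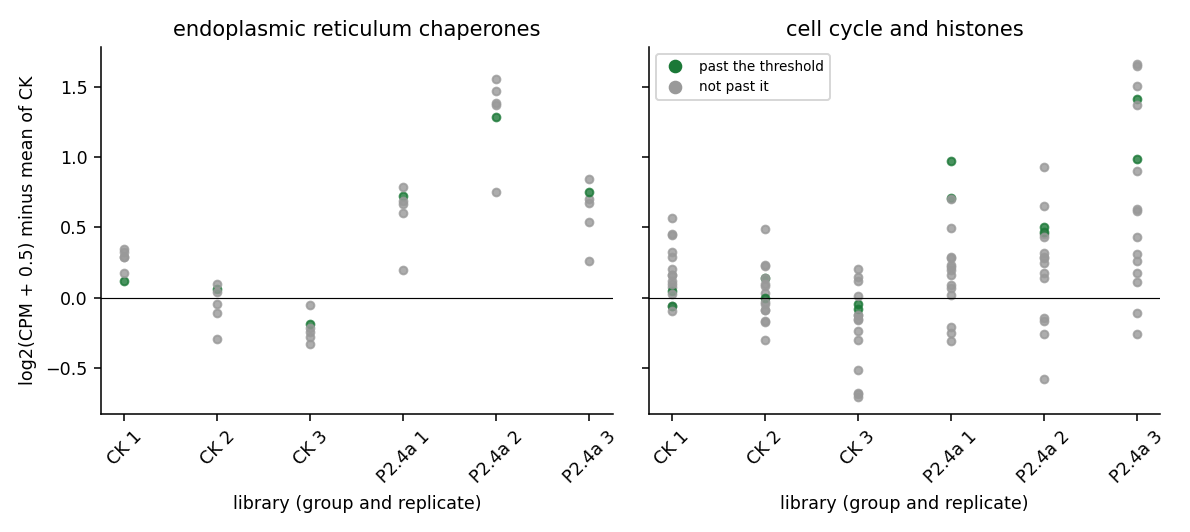
Level of each member of the BiP list (left, 6 genes) and the cell cycle list (right, 16 genes) in each library (x axis), as log2(CPM + 0.5) minus the CK mean of that gene (y axis); green marks members past the threshold. The 6 BiP genes are highest in P2.4a replicate 2. PCNA and cyclin, the called members of the other list, are highest in P2.4a replicate 3, while NtcycD3-1 and H3 are highest in CK replicate 3.

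Of 6 tested genes of water deficit and abscisic acid, NCED3 (LOC107827644) fell and none rose, beside 0.411% of all tested genes called lower, and the median fitted change was -0.79, with 5 of 6 below 0 (49.7% over all tested genes). NCED3-2 held 2.89, 6.07 and 2.14 CPM in CK and 0.894, 1.23 and 0.872 in P2.4a (log2 change -1.89, SE 0.39, edgeR adjusted p = 0.0531, and 0.0283 without both CK replicate 3 and P2.4a replicate 3). A further NCED3 gene, LOC107799511, held 23.3, 31.8 and 32.2 CPM in CK and 17.7, 17.7 and 23.3 in P2.4a (log2 change -0.57, SE 0.15, edgeR adjusted p = 0.101, and 0.0195 without P2.4a replicate 3). The 3 NCED3 genes may share reads. GolS and GolS1, which make galactinol, the donor of the raffinose sugars that build up under drought, had fitted changes of -1.50 and -0.94 with overlapping groups; GolS1 passed without CK replicate 2 (adjusted p 0.00869). P5CS, the entry enzyme of proline synthesis, had a fitted change of 0.18. The summed level of the 6 genes was 83.2 to 96.3 CPM in CK and 63.7 to 73.2 in P2.4a, without overlap. Singly, 2 of the 6 had every P2.4a library below CK, beside 9.88% of all tested genes.

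None of the 8 heat shock genes passed, beside 0.622% of all tested genes. Of the 8, 7 had a fitted value below 0 (median -0.57), beside 49.7% of all tested genes. Heat shock proteins of the cytosol keep heat-damaged proteins soluble. NtHsp90 had fitted change -0.53 (SE 0.16, edgeR adjusted p = 0.132), and its 3 P2.4a libraries stood below CK, as in 9.88% of all tested genes. HSP101, a disaggregase, held 338, 143 and 307.7 CPM in CK and 145, 189 and 96.8 in P2.4a (log2 change -0.87, SE 0.40, edgeR adjusted p = 0.395). CK replicate 2 lay within the P2.4a range of HSP101, and it was likewise the lowest CK library of Nthsp26a, dnaJ and NtHSF1. The fitted change was -0.03 for Hsp70 and -0.27 for NtHsp70, genes related to BiP.

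The sucrose, starch and hexose list held 12 tested genes, of which Hxk1 rose and SUT1 fell, beside 0.622% of all tested genes called, with a median of -0.09. Hexokinase genes differed in value: Hxk6 had a fitted value of 0.72 (SE 0.26, edgeR adjusted p = 0.215), with P2.4a at 3.89, 6.07 and 3.36 CPM above CK at 2.95, 2.02 and 3.14. Every P2.4a library lay above CK in 9.62% of all tested genes. Hxk4a stood at 0.97, Hxk1a at -0.16, Hxk4b at -0.40 and Hxk3 at -0.02, and none of them passed. The vacuolar invertase vi had a fitted change of -0.20 and did not pass. Its P2.4a libraries (72.3, 74.4 and 74.8 CPM) all lay below CK (89.2, 84.8 and 80.2), as in 9.88% of all tested genes. Sucrose phosphate synthase SPSC held 52.5, 33.9 and 21.7 CPM in P2.4a beside 45, 57.5 and 56.8 in CK (log2 change -0.56, SE 0.31, edgeR adjusted p = 0.477). SPSA had a fitted change of -0.17 and agpL3, of starch synthesis, 0.04.

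No gene of nitrate and ammonium assimilation passed among 10 tested, beside 0.622% of all tested genes, and the median was 0.07. Nitrate reductase NIA1 and NIA2 had fitted changes of 0.04 and 0.19 with SE 0.19 and 0.22. The nitrate transporter gene NtNRT1.2-t held 1.80, 1.04 and 1.00 CPM in CK and 0.894, 0.307 and 0.374 in P2.4a (log2 change -1.28, SE 0.46, edgeR adjusted p = 0.214), and NtNRT1.1-t had a fitted change of -0.32. Polyamine genes, which draw on the same nitrogen, gave no call among 7 and a median of -0.13. ADC1A, arginine decarboxylase, held 292, 330 and 338 CPM in CK and 244, 273 and 257 in P2.4a (log2 change -0.31, SE 0.13, edgeR adjusted p = 0.285). Its P2.4a libraries all lay below CK, as in 9.88% of all tested genes.

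None of 16 photosystem and light-harvesting genes passed, beside 0.622% of all tested genes. At that share, no call in a list of this size does not show that its genes were unchanged. Their median was -0.11 and their range -0.26 to 0.11. psbS, which triggers the dissipation of excess light, and PSBR, a subunit of photosystem II, had the smallest p, with fitted changes of -0.26 (SE 0.16) and -0.23 (SE 0.15) and edgeR adjusted p of 0.472 and 0.524. The 4 Calvin cycle genes had a median of -0.04, with GAPB at 0.16 and GAPA at -0.08. Among 10 chlorophyll synthesis genes 8 had a value above 0, beside 50.3% of all tested genes, with a median of 0.14 and no call. POR2 and POR1, which reduce protochlorophyllide in the light, held 188, 173 and 147 CPM in CK against 233, 251 and 204 in P2.4a, and 14.4, 13.1 and 10.3 against 14.4, 17.8 and 23.1. Their fitted changes were 0.44 (SE 0.14) and 0.55 (SE 0.17), with edgeR adjusted p of 0.161 and 0.172. The summed level of the list was 1162 to 1275 CPM in CK and 1284 to 1473 in P2.4a, with a narrow gap between the groups. Of the 10 members, 3 had every P2.4a library above CK, beside 9.62% of all tested genes. Plastid ribosome genes (7, median 0.09, CL28 at 0.14 and CL4 at 0.11) and cytosolic ribosome genes (8, median 0.17, RPL3A at 0.57 and RPL3B at 0.45) gave no call, but RPL3A passed without P2.4a replicate 3 (adjusted p 0.0059) and without both it and CK replicate 3 (0.0225).

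Carotenoid genes split around 0 (22 tested, no call beside 0.622% of all tested genes, median -0.03). DXS, the first enzyme of the plastid isoprenoid route, held 15, 17.1 and 18.4 CPM in CK and 22, 31.5 and 22.4 in P2.4a (log2 change 0.59, SE 0.15, edgeR adjusted p = 0.0887), and GGPPS3 of the same route had a fitted value of 0.48 (SE 0.14, edgeR adjusted p = 0.134). Without P2.4a replicate 3, 3 carotenoid genes passed: DXS (adjusted p 0.0279) and GGPPS3 (0.0405) higher, and BCH2 (0.0462), a carotene hydroxylase, lower. The carotenoid cleavage genes CCD4 and CCD1-1 had values below 0, at -0.78 and -0.33 for the CCD4 genes and -0.30 for CCD1-1. Among 28 phenylpropanoid genes, with a median of 0.10 and no call, hqt, the last enzyme of chlorogenic acid synthesis, held 94.9, 158 and 121 CPM in CK and 82.6, 64.9 and 51.7 in P2.4a (log2 change -0.91, SE 0.21, edgeR adjusted p = 0.088). CAD14 had a fitted value of -0.46 (SE 0.13, edgeR adjusted p = 0.125). The flavonoid genes F3'H (adjusted p 0.00712) and F3'H1 (0.0262) passed, higher, without P2.4a replicate 3. Of 26 alkaloid genes 7 were tested and none passed (median -0.20); 9 of them had no count in the 6 libraries. CYP82E5, a nicotine demethylase, had a fitted change of -0.23 and NtMPO2 -0.66. CYP82E3, of the same family, held 130.4, 157 and 193 CPM in CK and 272, 257 and 107 in P2.4a, and it passed, higher, without P2.4a replicate 3 (adjusted p 0.0248).

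Hormone response and defence lists gave no call in the 6 libraries, beside 0.622% of all tested genes called. Of 18 ethylene genes 14 had values below 0 (median -0.17), beside 49.7% of all tested genes. Among the 14 were the transcription factor EIL1 and NtERF#111 (log2 change -0.62, SE 0.17, edgeR adjusted p = 0.113). EIL1 held 37.6, 31.1 and 38.9 CPM in CK and 21.6, 22.5 and 29.0 in P2.4a (log2 change -0.56, SE 0.14, edgeR adjusted p = 0.0788, and 0.011 without P2.4a replicate 3). The 9 jasmonate and wounding genes had a median of -0.08; TIMPb stood at -0.92 (SE 0.27) and the wound-induced KED at -0.69 (SE 0.26), with adjusted p of 0.156 and 0.29 in edgeR. Of 11 pathogenesis-related genes 10 had values below 0 (median -0.19), beside 49.7% of all tested genes. Only 1 of the 11 had an unadjusted edgeR p under 0.05. In the 12-library fit the list median was 0.25 for P3.9a and 0.06 for P9.10a. chi-V, a chitinase, held 32.9, 19.3 and 24.6 CPM in CK and 15.8, 16.4 and 15.6 in P2.4a (log2 change -0.68, SE 0.17, edgeR adjusted p = 0.0844, and 0.0248 without CK replicate 2), and TLP1 stood at 0.82 with overlapping groups.

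**Figure D4:**
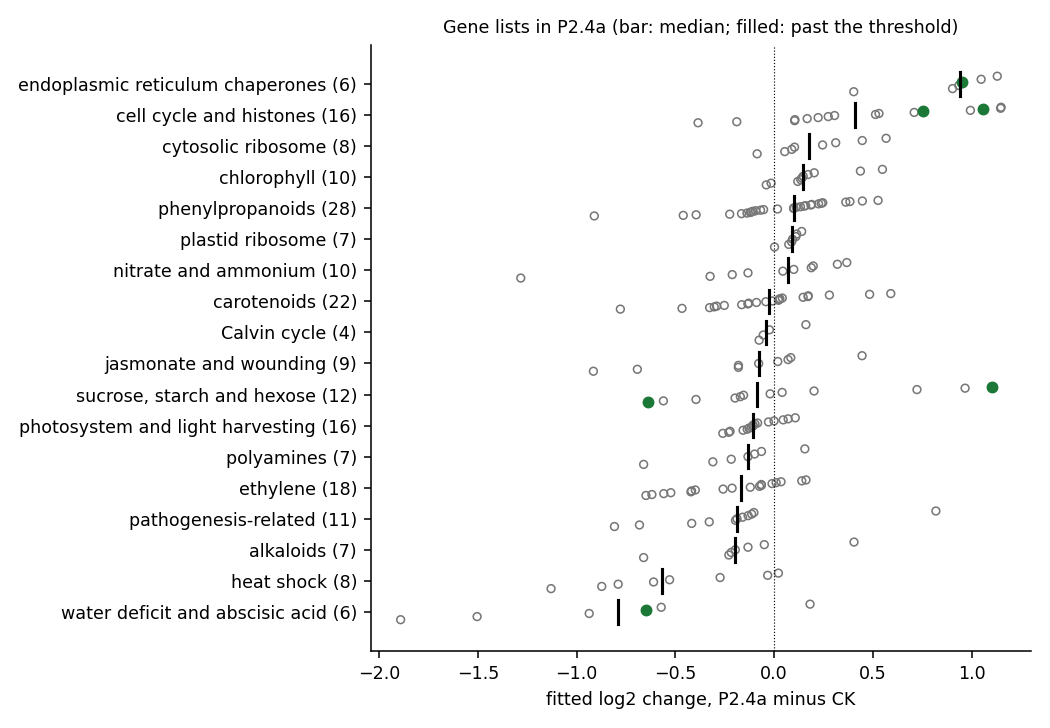
Fitted log2 change, P2.4a minus CK (x axis), of each tested member of the 18 gene lists (y axis, number tested in brackets), with a bar at the list median. Filled points are the members past the threshold; the BiP list lies farthest above 0 and the water deficit list farthest below.

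Defining markers of leaf mesophyll were abundant in every library and similar between groups: the 5 markers summed to 11467 to 13231 CPM in CK and 10292 to 13712 in P2.4a, with a median change of -0.08 and CAB21 at -0.08. Markers of other tissues were checked beside the lists above, and none of their tested members passed (0.622% of all tested genes did). The trichome marker NtABS held 61.5 to 67.4 CPM in CK and 60.3 to 86.6 in P2.4a (fitted change 0.18). Of 6 root markers 2 were tested, QPT2A at -0.20 and TobRB7 at -0.16, and PMT1, PMT2 and PMT3 were at 0. Of 5 flower markers 3 were tested (FUL1 at -0.35, SOC1 at -0.28 and FUL2 at 0.19) and GLO was at 0. The 3 vascular markers summed to 171 to 217 CPM in CK and 209 to 242 in P2.4a, with SEO2 at 0.22 and SEO1 at 0.20. SEN4, a senescence gene that marks older leaves, held 20.1, 15.5 and 21.5 CPM in CK and 10.9, 14.2 and 13.7 in P2.4a (log2 change -0.55, SE 0.15, edgeR adjusted p = 0.103), and SAG12 was at 0. The part of leaf age in the cell cycle values was not tested.

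Against the mean of the other lines, in the 12-library fit, 1 of 39207 genes passed (0.00255%), and it lies outside the rule for named genes. LOC107811420 held 48.9 to 80.7 CPM in P3.9a, while P2.4a (1.88 to 2.62), P9.10a (2.13 to 2.85) and CK (1.6 to 2.39) overlapped, so the difference of -2.42 (SE 0.21, edgeR adjusted p = 0.000209) comes from P3.9a. At an unadjusted p under 0.05 there were 1478 genes (3.77%), and DESeq2 called 29. In this fit no gene was called in which P2.4a itself lay apart from both other lines. With P3.9a replicate 1 left out 3 genes passed, the others being LOC107787913 (adjusted p 0.0388) and LOC107815154 (0.0388), both lower in P2.4a. With P3.9a replicate 3 left out 4 passed, among them LOC107781523 (0.00438) and LOC107817638 (0.00438), lower in P2.4a, and LOC107792345 (0.00135), higher. LOC107817638 stood at 1.88 to 2.37 CPM in P2.4a, 3.26 to 7.17 in P3.9a, 4.66 to 5.38 in P9.10a and 5.34 to 6.39 in CK, so that its P2.4a libraries lay below the other 9. For LOC107815154 and LOC107792345 the P2.4a libraries overlapped CK. In LOC107792345 the P2.4a libraries (45.7 to 64.1 CPM) also overlapped P9.10a (35.8 to 56.2), and P3.9a was low (4.64 to 30.2). With P9.10a replicate 1 left out LOC107805125 passed (0.00292), in which P9.10a was high.

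The nearest to the threshold among genes with P2.4a values of their own were 2 that passed against CK. LOC107781523 stood at 2.85 to 4.25 CPM in P2.4a, 7.73 to 14.8 in P3.9a, 9.16 to 13.8 in P9.10a and 12 to 17.8 in CK (P2.4a minus the other lines -1.62, SE 0.24, edgeR adjusted p = 0.119). LOC107794724 stood at 19.5 to 27.8 CPM in P2.4a, 12.8 to 14.5 in P3.9a, 12.5 to 14.8 in P9.10a and 9.77 to 13 in CK (0.81, SE 0.12, edgeR adjusted p = 0.119). In both the P2.4a libraries lay outside the range of the other 9. Hxk1 had the same layout, with P2.4a at 7.58 to 9.76 CPM, P3.9a at 3.36 to 4.58, P9.10a at 4.83 to 6.77 and CK at 3.68 to 4.38 (0.85, SE 0.15, edgeR adjusted p = 0.197). The abundant LOC107787913 stood at 553 to 573 CPM in P2.4a and at 671 to 1119 in P3.9a and 914 to 1152 in P9.10a (-0.80, SE 0.16, edgeR adjusted p = 0.353). NtABS is a case where P2.4a stood at the CK level: 61.2 to 88.2 CPM in P2.4a and 62.4 to 68.9 in CK, beside 114 to 136 in P3.9a and 98.6 to 114 in P9.10a (P2.4a minus the other lines -0.64, SE 0.13, edgeR adjusted p = 0.353).

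For other named genes the values of the 3 lines, each against the same CK libraries, are given side by side. LOC107772409 had fitted changes of -2.74 for P2.4a, -3.42 for P3.9a and -2.33 for P9.10a. SUT1 had -0.64, -0.50 and -0.61, and hqt -0.91, -0.91 and -0.98. HD had -1.06, -0.86 and -1.05, and CO -0.63, -0.62 and -0.49. For HSP101 the P2.4a value of -0.88 was nearer 0 than -1.77 in P3.9a and -1.26 in P9.10a, with a difference from the other lines of 0.63 (SE 0.29, edgeR adjusted p = 0.99). ADC1A had -0.31 in P2.4a beside -0.80 and -0.71 (difference 0.44, SE 0.11, edgeR adjusted p = 0.921). An adjusted p of this size does not show that the lines act alike.

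**Figure D5:**
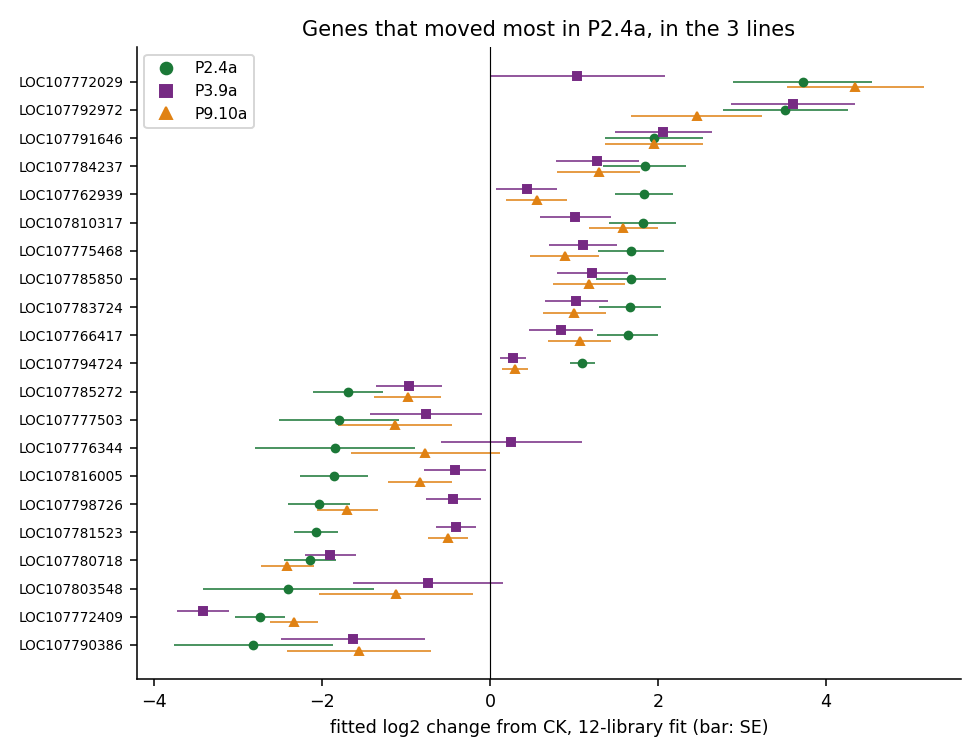
Fitted log2 change from CK in the 12-library fit (x axis; bars are SE) of the genes that moved most in P2.4a (y axis), for P2.4a (circles), P3.9a (squares) and P9.10a (triangles). LOC107781523 and LOC107794724 have P2.4a values away from the other lines, while LOC107772409 and LOC107780718 lie near -2 or lower in all 3.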

How the data were processed

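The authors deposited a table of whole-number read counts per gene, not normalized, for 12 leaf libraries. Per the submitters' processing notes, the tools included bedtools 2.25.0, SAMtools and HISAT2 2.1.0. Strand use, counting rule, annotation and build: not given in the sources used here. Coordinates are left out for that reason, and genes with near-identical copies may share reads. Symbols came from a RefSeq gene table of assembly ASM71507v2: of 61526 genes, 49014 were in it and 1081 had a symbol. Libraries were not duplicates (lowest chi-square per degree of freedom between replicates 6.94).

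From the counts, edgeR 4.0.16 in R 4.3.3 (TMM, filterByExpr with minimum count 10, robust quasi-likelihood) was run on the 6 libraries, with 4 residual degrees of freedom and a biological coefficient of variation of 13.7%. A 12-library fit (39207 genes, 8 degrees of freedom, 16.4%) gave the differences between lines and an alternative. Calls have a Benjamini-Hochberg adjusted p of at most 0.05. SE is the log2 change divided by the square root of F. The scripts were tested on simulated counts with known changes. There the 6-library fit made 137 calls, 18 of them false, and recovered 22.4% of 1.5-fold and 64.2% of 2-fold changes. The 12-library fit made 110 calls, 5 of them false. In this simulation, false calls of the 6-library fit were more frequent than the threshold of 0.05 allows.

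The members, gene lists and the choice of the 6-library fit as the main one were made with earlier results of these data known. Genes named are the 10 largest rises and 10 largest falls among calls with a mean of at least 1 log2 CPM and groups that do not overlap, calls of the 12-library fit, called genes with a symbol, the 2 members of each list with the smallest p, and leading differences from the other lines; other list members, and genes called only with a library left out, are named after their values were seen. Alternatives were DESeq2 1.42.0, limma-voom 3.58.1, RLE scaling, other filters, other sets of libraries, each library left out, and a replicate block. The numbers do not pair the samples: same-numbered libraries correlated at -0.113, -0.14 and -0.114. P-values measure the spread between libraries of 1 field experiment, which may be partly technical.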

Additional observations from a re-analysis of the deposited data

Results flagged for a closer look

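LOC107811420 is given again because its change from CK differed between lines by a test of the difference itself: P2.4a minus the mean of P3.9a and P9.10a was -2.42 on the log2 scale (SE 0.21, edgeR adjusted p = 0.000209). P3.9a held 48.9 to 80.7 CPM and the libraries of P2.4a, P9.10a and CK held 1.6 to 2.85, so P3.9a is the line that stands apart.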

How the results depend on the processing

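Against CK, 238 genes passed. The count was 3 with all 12 libraries, 56 with 11 (P3.9a replicate 1 left out of the spread), 18 with 9 (P3.9a left out), 793 with DESeq2, 149 with limma-voom, 693 with no filter on low counts and 691 with CK replicate 3 and P2.4a replicate 3 both left out, a choice made after seeing the data; the cause of these shifts was not tested. Of the 238, 55 were among the 56, 147 among the 149, and all among the 793. Leaving out 1 library gave 21 to 1358 calls. With the replicate number as a block 231 genes passed, 143 of them among the 238. RLE scaling gave 229 and a minimum count of 30 gave 200. No called gene changed sign under any of these, which is little of a check because the groups did not overlap in any of the 238.

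Against the other lines, 1 gene passed, beside 3 with 11 libraries, 29 with DESeq2 and 1 to 4 with 1 library left out.

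List medians that moved beyond the spread between replicates were those of water deficit (-0.97 to -0.65 with 1 library left out, -0.61 without both), sucrose (-0.13 to -0.034), carotenoids (-0.13 to 0.053), alkaloids (-0.23 to 0.00051, and -0.038 without both), cell cycle (0.12 without both) and cytosolic ribosome (0.28 without both). Genes near 0 turned sign: GAPA (-0.21 to 0.023 with 1 library left out) and TobRB7 (-0.50 to 0.026), both without P2.4a replicate 2, and SEO1 (-0.021) and CAB21 (0.00074) without both. At this depth genes under about 1 CPM rest on few counts.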

Other observations

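In the gene order of the reference assembly, 224 of the 238 called genes could be placed. Among them 11 pairs lay within 5 places of each other, and 9 of these pairs moved in 1 direction. How many such pairs genes drawn at random would give was not worked out, so neither count shows clustering. Neighbours with no gene between them made up 3 pairs. LOC107796170 and LOC107780090 rose together (log2 changes 1.30, SE 0.22, and 1.27, SE 0.26), as did LOC107784232 (0.62, SE 0.13) and LOC107784237 (1.85, SE 0.28). LOC107810716 and LOC107825613 fell together (-0.81, SE 0.16, and -0.90, SE 0.16). NtRb1 lay near LOC107767095 (0.92, SE 0.19), which lay near LOC107791646 (1.96, SE 0.35), and all 3 were higher in P2.4a. Reads that run from 1 gene into the next, or a duplicated pair counted together, were not tested, and the order is that of cultivar K326 rather than TN90.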
